A study of Mus musculus with 12 samples.

Results

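The ATP-binding cassette (ABC) transporters of subfamilies A to G and the organic anion transporting polypeptides (Slco genes) were examined in mouse liver and liver tumors. Members were all genes whose symbol begins with Abc, a subfamily letter from a to g and a number, or with Slco and a number. The rule found 61 genes among the 19012 gene symbols measured, 47 ABC genes and 14 Slco genes. Expression is given as RPKM, the reads of a gene scaled to its exon length in kilobases and to each M of reads in the library (M, mega), which allows genes of different length to be compared. A gene counted as expressed at 0.5 RPKM or more in at least 4 of the 12 libraries, and 43 members (36 ABC and 7 Slco) met that rule, against 11352 genes in all.

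The libraries, each from polyadenylated RNA, came from 4 wild-type livers and from 4 livers and 4 liver tumors of mice without E2f7 and without E2f8, called DKO for double knockout. E2f7 and E2f8 encode the atypical, repressing E2F factors, best known for limiting cell-cycle genes. The deposited tables come with short codes, read here as animal codes. By these codes a DKO liver and a DKO tumor with the same number share 1 animal, and wild-type livers come from others. On this reading every DKO liver here came from a tumor-bearing mouse. The sources used here do not state age, sex or strain, nor in which cells and when the genes were deleted. The tables also bear a tag of unstated meaning, which is L02 on every DKO liver and on wild-type livers 1 and 2 and L03 on every DKO tumor and on wild-type livers 3 and 4. The tag and the tissue therefore cannot be told apart when DKO tumor is compared with DKO liver. The comparisons of DKO liver and of DKO tumor with wild-type liver use the same 4 wild-type libraries.

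ABC transporters use ATP to move lipids, bile acids, conjugates and drugs across membranes, and Slco proteins exchange organic anions without ATP. In a hepatocyte the sinusoidal, blood-facing membrane carries the uptake transporters Slco1b2, Slco1a1, Slco1a4 and Slco2b1. The canalicular, bile-facing membrane carries Abcb11, Abcc2, Abcb4, Abcg2 and the pair Abcg5 and Abcg8, which set the content of bile. Other ABC proteins sit on the basolateral membrane, in peroxisomes, in mitochondria, or move sterols and phospholipids to lipoproteins.

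Depth ranged from 7.985 to 15.956 M reads. E2f8 was at 1.66 to 4.3 RPKM in wild-type livers, at 2.8 to 20.8 in DKO livers and at 1.66 to 12.2 in DKO tumors, and E2f7 had 3 to 22 reads in every library. The labels do not give the deleted part of either gene, so these levels do not check the genotype, which rests on the labels. The summed level of 10 hepatocyte markers was 56475 to 82820 RPKM in wild-type livers, against 48436 to 117848 in DKO livers and 79747 to 133420 in DKO tumors. Most of the sum was Alb, and the other 9 markers summed to 19476 to 30361, 19286 to 27746 and 17686 to 24033 RPKM in the same order. The summed level, again in that order, of 10 Kupffer cell and macrophage markers was 144 to 374 RPKM, 250 to 725 and 91.1 to 318, that of 10 endothelial markers 56.4 to 86.9, 87.6 to 139 and 44.8 to 119, that of 10 stellate cell and fibroblast markers 107 to 148, 111 to 367 and 59.7 to 256, and that of the 8 cholangiocyte markers found 29.8 to 43.1, 34.5 to 173 and 19.1 to 119. In every library most of the cholangiocyte sum was Spp1, and most of the stellate cell and fibroblast sum was Dcn. The cholangiocyte markers Krt7 and Cftr did not meet the expression rule, and no gene of a cell-type list passed the test in any comparison. Both tissues of DKO animals 1 and 2 had 9.24 to 11.2 RPKM of the clock gene Arntl against 0.484 to 2.26 in all other libraries. Not every clock gene split the libraries in this way. Dbp was at 3.51 to 4.85 RPKM in DKO animals 1 and 2, at 15.1 to 38.6 in DKO animals 3 and 4 and at 40.7 to 110 in wild-type livers. Fits without DKO animals 1 and 2 therefore still compare libraries that differ in Dbp.

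In wild-type livers the members were headed by the 2 main uptake transporters. Slco1b2 averaged 536 ± 37.5 RPKM (SD, n = 4 libraries, as for all means below), Slco1a1 298 ± 36.5 and the peroxisomal transporter Abcd3 130 ± 12.5. The ranges of these 3 did not overlap each other or that of the next gene. From Abcb11 (74.01 ± 20.1), Abcc2 (71.98 ± 16.9), Abca6 (57.01 ± 3.03), Abcg5 (54.5 ± 12.2) and Abcb4 (50.4 ± 4.12) downward, the range of each expressed member overlapped that of the next. Slco1b2 and Slco1a1 together made up 47.2 to 50.3% of the summed RPKM of all 61 members in wild-type livers, 29.5 to 42.4% in DKO livers and 22.9 to 52% in DKO tumors. The 8 canalicular genes made up 16.4 to 19.9%, 15.1 to 26.9% and 18.6 to 26.2%.

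Group means were compared with limma on log2(RPKM + 1) over all 12 libraries, two-sided, with p-values adjusted over all 11352 genes by the Benjamini-Hochberg method. The offset of 1 understates the differences of genes with low values. Whether groups overlap was read from RPKM as deposited. Median-of-ratios scaling, an alternative used below, divides libraries by factors from 0.7618 (tumor 1) to 1.276 (DKO liver 3), so narrow separations can close under it. The labels do not say that the wild-type livers came from separate animals, although their codes differ, so p-values measure the spread between these libraries.

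In DKO livers the 2 leading uptake transporters, the peroxisomal Abcd3 and the lipid transporter Abca6 stood below wild-type livers in every library. The ratio of the DKO liver mean to the wild-type mean was 0.488 for Slco1b2, 0.576 for Slco1a1, 0.604 for Abcd3 and 0.683 for Abca6. No member passed the limma test between DKO liver and wild-type liver, and neither did any other gene, 0 of 11352 (0%). Without adjustment 8 of 43 members had p under 0.05, against 1408 genes (12.4%), and weighting the recovered reads by their precision with voom also called 0 members. The 4 named first were the members in which all DKO livers lay below all wild-type livers, and in no member did they lie above. After median-of-ratios scaling Slco1a1 and Abcd3 would overlap, through DKO liver 2 and wild-type liver 3. Groups did not overlap in the lower direction for 1.96% of all genes and in the higher direction for 5.62%, in either direction 7.58% against 9.3% of the members. The median log2 difference over the 43 members was -0.04, beside 0.08 over all genes. It was -0.52 over the 7 canalicular genes expressed and -0.23 over the 7 Slco genes. The latter is the value of Slco1a5, which had 3 to 27 reads in these libraries. Medians of other roles had both signs, such as 0.23 over the 6 other Abcc exporters and -0.11 over the 4 Abcd genes.

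In tumors Abcc6, Slco2b1, Slco1a1 and Abcd3 were below wild-type livers in every library, with ratios of the means of 0.409, 0.59, 0.508 and 0.64. Abca8b and Abca1 were above, with ratios of 1.72 and 1.48. Between tumor and wild-type liver 1 member passed the limma test, Abcc6, which fell, against 216 of all genes (1.9%), of which 76 (0.669%) fell. Groups did not overlap for these 6 members (14%), 2 higher and 4 lower in tumors, beside 11.9% of all genes, of which 5.57% were higher and 6.32% lower. Without adjustment 11 members (25.6%) had p under 0.05, against 2177 genes (19.2%). The median log2 difference was -0.04 over the members and -0.02 over all genes.

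Set against DKO livers of the same animals, the tumors had less Abcc6 and Slco2b1 in every library than any of those livers, with ratios of the means of 0.432 and 0.519. In the same sense they had more Abca5, Abca8b and Abca6, with ratios of 1.96, 1.88 and 1.39. No member passed the limma test in this comparison and 1 gene in all did (0.00881%). Without adjustment 7 members had p under 0.05, against 1822 genes (16.1%), and voom called 0 members. With the animal as a block, limma called 0 members and 71 genes. Groups did not overlap for these 5 members (11.6%), 3 higher and 2 lower in tumors, beside 6.2% of all genes, of which 2.12% were higher and 4.08% lower. The median log2 difference was -0.06 over the members and -0.09 over all genes, and both turned positive under 2 other scalings (0.07 and 0.01).

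Over the libraries that share a tag, no member passed limma between DKO liver and wild-type liver (6 libraries) or between tumor and wild-type liver (6 libraries). In DKO livers the log2 differences there were -1.05 for Slco1b2, -0.91 for Slco1a1, -0.81 for Abcd3 and -0.53 for Abca6. In tumors they were -1.06 for Slco1a1, -0.83 for Slco2b1, -0.66 for Abcd3, 0.51 for Abca8b and 0.51 for Abca1.

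**Figure D1:**
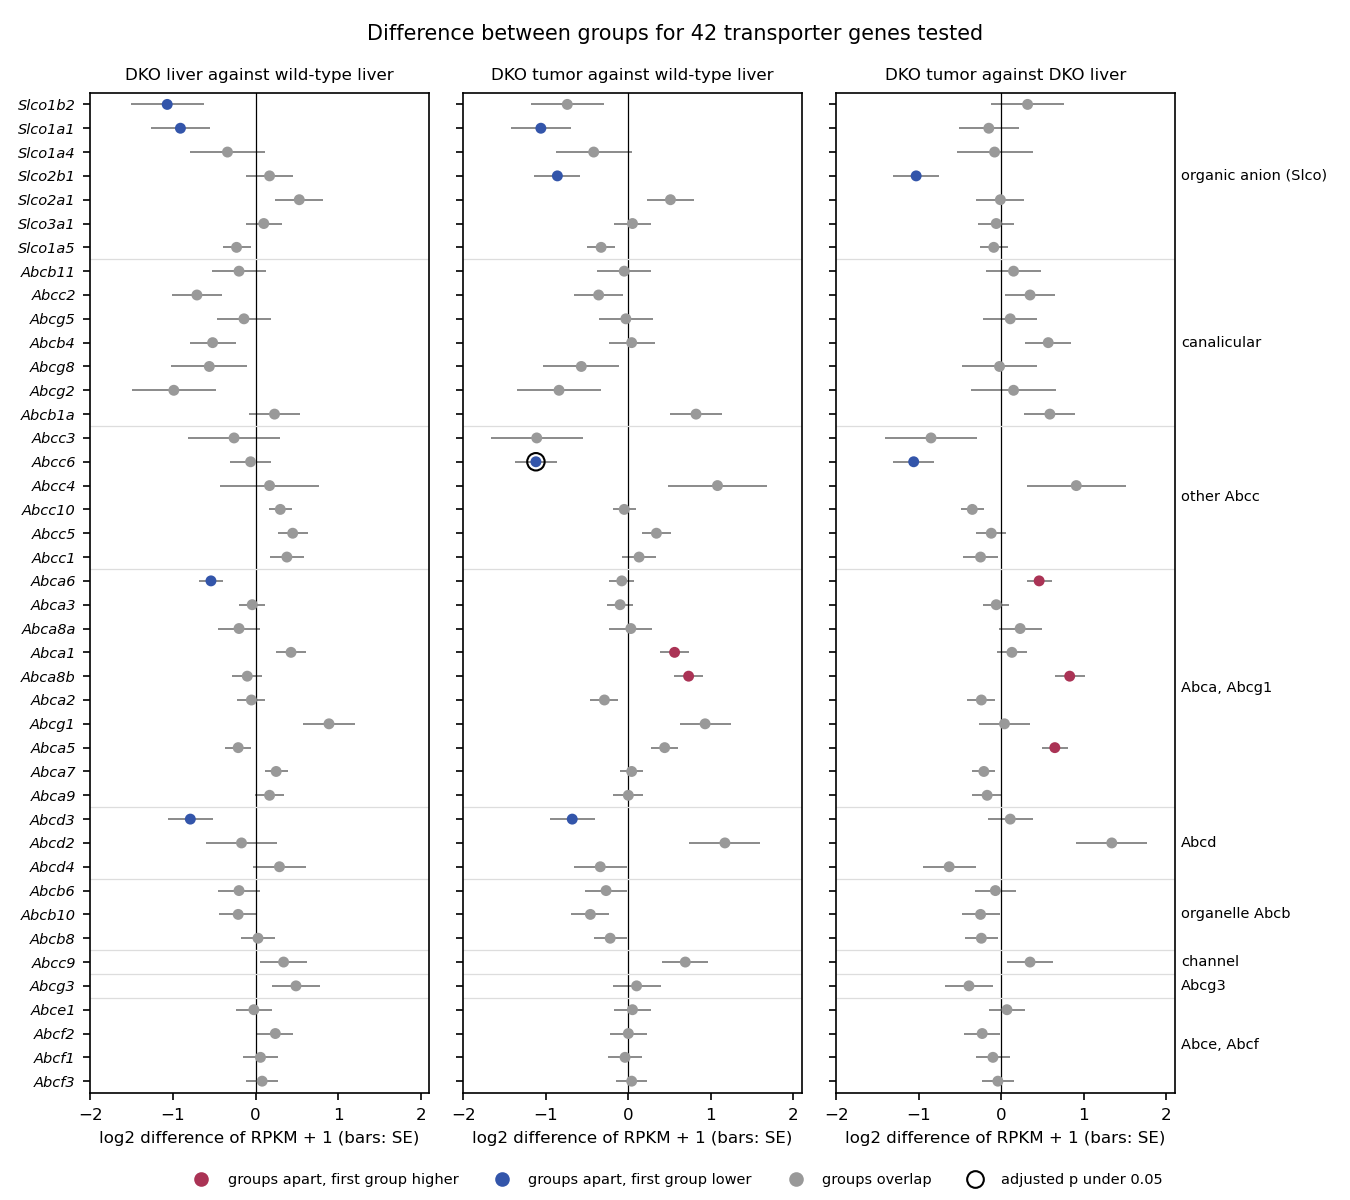
Log2 difference of RPKM + 1 between 2 groups (x axis) for 42 of the 43 transporter genes tested (y axis), ordered by role and by wild-type level, with the standard error as a bar. Colour marks members whose 2 groups of 4 libraries did not overlap, red for higher and blue for lower in the first group, and the ring marks Abcc6, the 1 member past the adjusted threshold, in tumors against wild-type livers.

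Among the uptake transporters, Slco1b2 and Slco1a1 were lower in every DKO liver than in any wild-type liver. Slco1b2 is the mouse counterpart of the human hepatic uptake transporters for bilirubin glucuronides, bile acids and statins. It was at 501, 562, 574 and 507 RPKM in wild-type livers and at 272, 309, 296 and 169.7 in DKO livers. The DKO tumors had 117, 303, 343 and 855 RPKM. Tumors 1 to 3 lay below every wild-type liver, and tumor 4 lay above all of them, so that the 4 tumors spanned the widest range of the 3 groups. In DKO livers the mean was 262 ± 63.2 RPKM, with a log2 difference from wild type of -1.07 ± 0.44 (SE, limma adjusted p = 0.378). This SE draws on the spread of all 12 libraries, the widely spread tumors among them. With the 8 libraries of the comparison alone the difference did not pass either (limma adjusted p = 0.249).

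Slco1a1, an uptake transporter of steroid conjugates and bile acids known to be higher in male than in female mouse liver, was at 266, 331, 267 and 328 RPKM in wild-type livers. The DKO livers had 76.2, 255, 189 and 167 RPKM and the DKO tumors 77.2, 135, 201 and 193. In RPKM as deposited, every library of both DKO groups lay below every wild-type liver, and animal 1 had the lowest value of both tissues. The median-of-ratios factors were 0.9952 for DKO liver 2 and 1.048 for wild-type liver 3. Division by them would put DKO liver 2 just above wild-type liver 3. The log2 difference was -0.91 ± 0.36 (SE, limma adjusted p = 0.358) for DKO livers and -1.06 ± 0.36 (SE, limma adjusted p = 0.13) for tumors. Without DKO liver 1 the former was -0.56. Without DKO animals 1 and 2 the latter was -0.59, and after quantile normalization -0.67. Fewer cells that express a gene and less of its RNA per cell cannot be told apart in such bulk samples, here or in any comparison below.

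The Slco1a1 values can be set beside those of other sex-biased liver genes, listed with earlier results of these data known. The median log2 difference of 10 male-biased genes tested was -1.14 in DKO livers and -1.93 in tumors against wild type, and that of 10 female-biased genes was 1.16 and 1.04. In DKO livers 0 genes of either list passed limma or had separate groups, and the DKO livers differed among themselves. Cyp4a12a was at 16.7, 171, 134 and 6.63 RPKM there, against 114 to 199 in wild-type livers. Not every listed gene split them alike: Elovl3 of DKO liver 3 was at 2.2 RPKM, against 8.23 to 31.9 in wild-type livers. Against wild-type livers Cyp2u1 of the male-biased list fell in tumors (log2 difference -2.62, SE 0.50, limma adjusted p = 0.0269), and Cyp2a4 of the female-biased list rose (log2 difference 3.99, SE 0.65, limma adjusted p = 0.0181). The call of Cyp2u1 held in 14 of 23 alternatives, with limma adjusted p up to 0.406, and that of Cyp2a4 in 18 of 23, with adjusted p up to 0.182. Leaving out wild-type liver 1 or 4 or tumor 1 or 2 ended both calls (limma adjusted p = 0.0654 to 0.099 for Cyp2u1 and 0.0541 to 0.08 for Cyp2a4), and leaving out wild-type liver 2 ended that of Cyp2u1 (0.0678). The Y-linked gene Ddx3y was present in all 12 libraries at 11 to 21.9 RPKM. The part of sex-biased regulation in the Slco1a1 values was not tested.

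Slco1b2 and Slco1a1 lie in the Slco1 cluster of mouse chromosome 6, Slco1b2 on the plus strand at chr6:141578038-141635155 and Slco1a1 on the minus strand at chr6:141856373-141895314 in mm9, the build of the deposited coordinates (whether they count from 0 or 1 is not stated). The 250 bases before their RefSeq start sites in GRCm38.p6 are shown because both genes were lower in every DKO liver. They lie at chr6:141629268-141629517 (plus strand) and chr6:141946963-141947212 (minus strand), and capitals mark the nuclear receptor half-site AGGTCA or its reverse complement TGACCT.
Slco1b2: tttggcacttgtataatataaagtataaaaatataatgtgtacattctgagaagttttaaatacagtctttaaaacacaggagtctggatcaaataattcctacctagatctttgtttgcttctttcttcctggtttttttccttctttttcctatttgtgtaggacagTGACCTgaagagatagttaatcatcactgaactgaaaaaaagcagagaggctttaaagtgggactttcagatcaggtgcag
Slco1a1: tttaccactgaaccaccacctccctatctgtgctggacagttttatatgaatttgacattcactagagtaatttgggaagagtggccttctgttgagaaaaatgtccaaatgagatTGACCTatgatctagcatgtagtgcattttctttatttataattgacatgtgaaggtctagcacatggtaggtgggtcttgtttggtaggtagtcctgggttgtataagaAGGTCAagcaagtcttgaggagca
The Slco1b2 stretch held 1 match and the Slco1a1 stretch 2. Over windows of 300 bases (250 before and 50 after the start), searched on both strands, AGGTCA was found in 16.3% of all 32851 windows and in 10 of the 59 windows of members, those of Slco1b2, Slco1a1, Slco4a1, Abcb11, Abcc2, Abcg2, Abcb6 and Abcc10. RefSeq windows were matched for 48 members, 33 of them expressed. The inverted and the direct repeat of this half-site with 1 base between, and the palindromic HNF1 word, were in 0 member windows and in 3, 13 and 3 windows overall. These are matches of letters and not measured sites.

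Slco2b1, a broad organic anion transporter of hepatocytes and other cells, was at 34.02, 35.3, 34.4 and 31.9 RPKM in wild-type livers, at 39.8, 45.04, 33.3 and 35.7 in DKO livers and at 18.6, 8.195, 27.6 and 25.5 in tumors. The tumors lay below both liver groups, which overlapped, and tumor 2 was the lowest. The log2 difference of the tumors was -0.86 ± 0.28 (SE, limma adjusted p = 0.122) from wild-type livers and -1.03 ± 0.28 (SE, limma adjusted p = 0.121) from DKO livers. Without tumor 2 these were -0.50 and -0.67, and without DKO animals 1 and 2 -0.34 and -0.37. Without tumor 3 the difference from DKO livers was -1.22 and passed the test (limma adjusted p = 0.0409).

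Slco1a4, an uptake transporter of bile acids and cardiac glycosides that is induced through xenobiotic receptors, was at 42.9, 27.4, 54.3 and 49.5 RPKM in wild-type livers, at 37.7, 23.5, 49.5 and 27.4 in DKO livers and at 13.5, 18.7, 52.2 and 70.6 in tumors. Tumors 1 and 2 were lower and tumor 4 higher than all other libraries. Slco2a1, the prostaglandin transporter, averaged 23.3 ± 7.15, 34.9 ± 13.6 and 33.7 ± 9.95 RPKM in the same order, with overlapping groups. Slco3a1 and Slco1a5 stayed at or below 1.92 RPKM in every library. Slco1a5 overlaps Iapp on the other strand, and genes of the Slco1a cluster resemble each other closely, so reads may be shared between them.

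**Figure D2:**
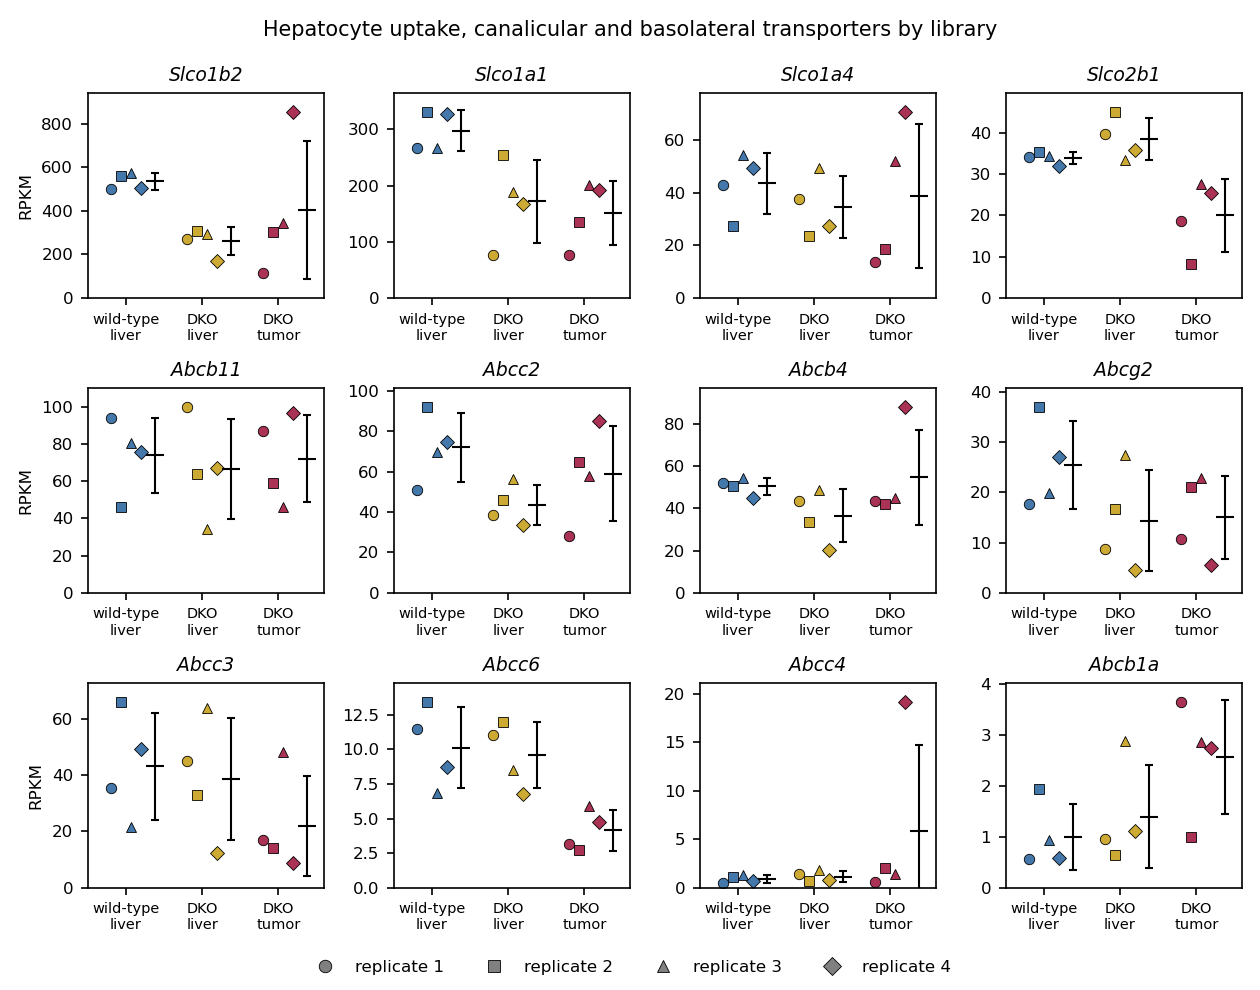
RPKM (y axes, from 0) of 12 transporters in each library, by group (x axes). Symbols give the replicate number, which DKO liver and DKO tumor share when they come from 1 animal, and the bar beside each group gives the mean with the SD, its lower end cut at 0 for Abcc4. Slco1b2 and Slco1a1 of all DKO livers lie below the wild-type livers, Abcc6 of all tumors lies below both liver groups, and tumor 4 is apart for Slco1b2, Abcb4 and Abcc4.

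No canalicular gene passed the test in any of the 3 comparisons, and no canalicular gene had groups that did not overlap. Abcb11, the bile salt export pump, was at 93.9, 46.1, 80.3 and 75.7 RPKM in wild-type livers, at 99.99, 63.9, 34.4 and 67.4 in DKO livers and at 87.1, 58.95, 46.1 and 96.7 in tumors. The means were 74.01 ± 20.1, 66.4 ± 26.8 and 72.2 ± 23.6 RPKM, closer than the SD of any group.

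Abcc2, which exports bilirubin glucuronides and other conjugates into bile, was at 51.03, 92.1, 69.9 and 74.9 RPKM in wild-type livers and 38.6, 45.7, 56.4 and 33.5 in DKO livers. Only DKO liver 3 reached into the wild-type range, and the log2 difference was -0.71 ± 0.30 (SE, limma adjusted p = 0.38). The tumors had 28.3, 64.8, 57.9 and 84.9 RPKM and overlapped both liver groups.

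Abcb4, the phosphatidylcholine floppase of the canaliculus, was at 52.1, 50.5, 54.3 and 44.7 RPKM in wild-type livers, at 43.2, 33.3, 48.8 and 20.5 in DKO livers and at 43.6, 41.9, 44.8 and 87.96 in tumors. DKO livers 1, 2 and 4 lay below every wild-type liver, and tumor 4 was the highest of all 12 libraries. Abcg2, an exporter of urate, porphyrins and drugs, was at 17.8, 37.1, 19.9 and 27.2 RPKM in wild-type livers, at 8.797, 16.7, 27.6 and 4.502 in DKO livers and at 10.6, 21.1, 22.8 and 5.64 in tumors. The liver and the tumor of animal 4 had the 2 lowest values.

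Abcb1a, a drug efflux pump that mouse liver carries at low level, was at 0.554, 1.93, 0.9296 and 0.579 RPKM in wild-type livers, at 0.947, 0.641, 2.89 and 1.11 in DKO livers and at 3.65, 0.997, 2.87 and 2.74 in tumors. Tumors 1, 3 and 4 lay above every wild-type liver, and tumor 2 lay within their range. The log2 difference of tumors from wild type was 0.82 ± 0.31 (SE, limma adjusted p = 0.176) and 1.31 with an offset of 0.1. Its near copy Abcb1b was at 0.115 to 0.523 RPKM and missed the expression rule. How reads shared by the 2 genes were assigned is not stated.

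Abcg5 and Abcg8 encode the partner proteins of the sterol exporter of bile, and their starts face away from each other on chromosome 17. Abcg5 was at 65.5, 47.3, 41.1 and 64.3 RPKM in wild-type livers, at 76.3, 28.3, 65.8 and 38.1 in DKO livers and at 37.3, 38.97, 64.3 and 80.5 in tumors. Abcg8 was at 41.8, 27.9, 19.5 and 38.4 RPKM in wild-type livers, at 48.9, 12.6, 22.8 and 12.1 in DKO livers and at 11.2, 16.6, 21.04 and 41.8 in tumors. All 3 groups overlapped for both genes. The ratio of Abcg5 to Abcg8 was above 1 in every library, from 1.57 to 2.11 in wild-type livers, 1.56 to 3.15 in DKO livers and 1.93 to 3.33 in tumors. DKO livers 2, 3 and 4 and tumors 1, 2 and 3 had a higher ratio than every wild-type liver.

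In GRCm38.p6 the RefSeq start sites of Abcg5 and Abcg8 are separated by 109 bases, chr17:84683012-84683120 on the strand of Abcg8. This stretch is shown because it lies before both genes, and capitals mark GATAA or its reverse complement TTATC, the core read by GATA factors.
Abcg5 and Abcg8: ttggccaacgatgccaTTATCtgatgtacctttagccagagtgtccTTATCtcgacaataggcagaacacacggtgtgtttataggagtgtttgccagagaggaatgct
It held 2 such matches in 109 bases. GATAA was found at least once on either strand in 25.4% of the 32851 promoter windows. Those windows are 300 bases long, so their share is not that of stretches of 109 bases.

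**Figure D3:**
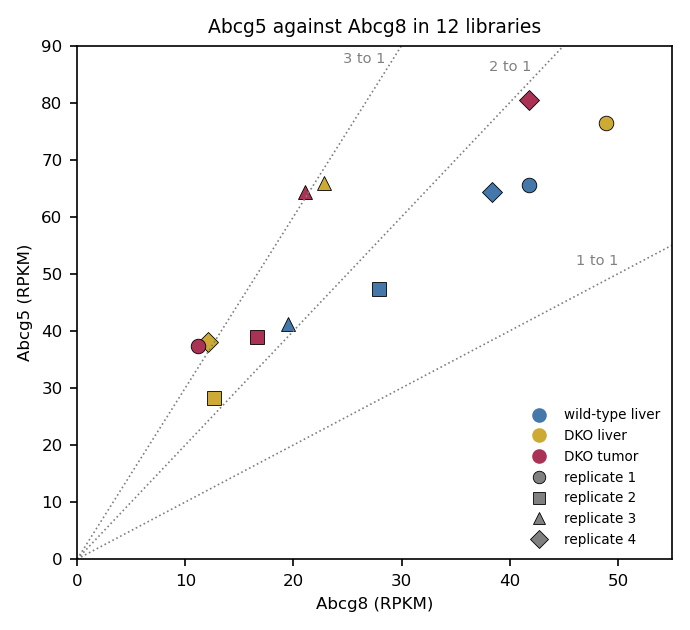
Abcg5 (y axis) against Abcg8 (x axis), both in RPKM, with 1 point per library, colour for the group and symbol for the replicate number. Dotted lines mark ratios of 1, 2 and 3, and all 12 libraries lie between ratios of 1.56 and 3.33.

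Of the other Abcc exporters, Abcc6 was lower in every tumor than in any liver library and was the 1 member that passed the test. Abcc6, an ATP-release protein of the hepatocyte whose loss in humans causes ectopic mineralization, was at 11.5, 13.5, 6.84 and 8.72 RPKM in wild-type livers and 11.1, 11.96, 8.53 and 6.74 in DKO livers. The tumors had 3.12, 2.75, 5.91 and 4.77 RPKM. Tumor 3 was nearest to the livers, whose lowest value was 6.74. Mean levels were 10.1 ± 2.93, 9.58 ± 2.39 and 4.14 ± 1.47 RPKM in wild-type livers, DKO livers and tumors.

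Against wild-type livers the log2 difference of Abcc6 in tumors was -1.12 ± 0.25 (SE, limma adjusted p = 0.0356), and against DKO livers it was -1.06 ± 0.25 (SE, limma adjusted p = 0.081). Wild-type livers 3 and 4, which carry the tag of the tumors, had less Abcc6 than wild-type livers 1 and 2. Over the libraries with that tag alone the difference was -0.81 (limma adjusted p = 0.377). Without DKO animals 1 and 2 it was -0.78 (limma adjusted p = 0.237), and against DKO livers -0.44. Leaving out wild-type liver 1, 2 or 4 or tumor 1 or 2 also ended the call, with limma adjusted p of 0.125, 0.0937, 0.0988, 0.0894 and 0.115. Abcc6 lies on the minus strand at chr7:53231749-53285655 in mm9.

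Abcc3, a basolateral exporter of glucuronides that cholangiocytes also express, was at 35.5, 66.1, 21.5 and 49.2 RPKM in wild-type livers, at 45.1, 33.0, 63.9 and 12.2 in DKO livers and at 16.9, 13.98, 48.2 and 8.595 in tumors. Tumors 1, 2 and 4 lay below every wild-type liver, and tumor 3 lay within their range. DKO liver 3 and tumor 3 were the highest of their groups, as they also were for the cholangiocyte marker Spp1, at 154 and 103 RPKM against 12.1 to 39.9 in the other libraries. The same 2 libraries were also the highest of their groups in the summed stellate cell and fibroblast markers (367 and 256 RPKM), the endothelial markers (139 and 119) and the lymphocyte markers (20.7 and 13.6). The part of any of these cell types in the Abcc3 values was not tested.

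Abcc4, a basolateral exporter of bile acids and cyclic nucleotides that is low in healthy liver, was at 0.4602, 1.12, 1.295 and 0.713 RPKM in wild-type livers and 1.38, 0.6801, 1.79 and 0.736 in DKO livers. The tumors had 0.614, 2.07, 1.41 and 19.2 RPKM, with tumor 4 far above the other 11 libraries. Abcc5, an exporter of cyclic nucleotides and organic anions, averaged 0.721 ± 0.304 RPKM in wild-type livers and 1.37 ± 0.506 in DKO livers, with overlapping groups and a log2 difference of 0.45 ± 0.18 (SE, limma adjusted p = 0.353). Its difference was 0.85 with an offset of 0.1, 0.92 with voom and 0.29 after quantile normalization. Abcc1, an exporter of glutathione conjugates, stayed between 0.275 and 1.62 RPKM. Abcc10 averaged 1.12 ± 0.1898 RPKM in DKO livers and 0.669 ± 0.222 in tumors, a log2 difference of -0.35 ± 0.14 (SE, limma adjusted p = 0.246) that was -0.69 with an offset of 0.1 and -0.80 with voom, and it overlaps Dlk2 on the other strand.

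Among the lipid transporters of subfamily A, 3 neighbours on chromosome 11 separated the groups in different ways. Abca5, Abca6, Abca8a, Abca8b and Abca9 form a run of related genes there, all on the minus strand between 109795585 and 110199029 in mm9. Abca6 was at 53.3, 59.4, 59.6 and 55.8 RPKM in wild-type livers, at 44.2, 39.3, 34.4 and 37.8 in DKO livers and at 56.6, 53.4, 45.7 and 60.5 in tumors. All DKO livers lay below all libraries of both other groups, which overlapped. After median-of-ratios scaling (factors 0.9151 for DKO liver 4 and 1.112 for tumor 3) tumor 3 would fall just below DKO liver 4. The log2 difference of DKO livers from wild type was -0.54 ± 0.15 (SE, limma adjusted p = 0.27), and that of tumors from DKO livers was 0.46 ± 0.15 (SE, limma adjusted p = 0.169).

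Abca8b was at 10.7, 9.35, 14.5 and 13.4 RPKM in wild-type livers, at 11.4, 11.3, 11.03 and 10.3 in DKO livers and at 22.5, 25.2, 14.6 and 20.3 in tumors. All tumors lay above all livers, tumor 3 by the smallest margin, since wild-type liver 3 had 14.51 RPKM and tumor 3 14.55. After median-of-ratios scaling (factors 1.048 and 1.112) tumor 3 would lie below wild-type liver 3. The log2 difference of tumors was 0.73 ± 0.18 (SE, limma adjusted p = 0.0563) from wild-type livers and 0.83 ± 0.18 (SE, limma adjusted p = 0.0792) from DKO livers. Without tumor 3 both passed the test, at 0.88 (limma adjusted p = 0.0188) and 0.98 (limma adjusted p = 0.0169). Neither passed in any other alternative, and without DKO animals 1 and 2 they were 0.51 and 0.64.

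Abca5, which acts in lysosomal and endosomal sterol handling, was at 1.32, 2.08, 2.21 and 1.83 RPKM in wild-type livers, at 1.41, 1.29, 1.88 and 1.28 in DKO livers and at 2.12, 3.199, 2.901 and 3.27 in tumors. The tumors lay above all DKO livers and overlapped the wild-type livers through tumor 1. Their log2 difference was 0.65 ± 0.16 (SE, limma adjusted p = 0.088) from DKO livers and 0.44 ± 0.16 (SE, limma adjusted p = 0.154) from wild-type livers. The first passed the test after quantile normalization (0.75, limma adjusted p = 0.0474) and the second after median-of-ratios scaling (0.47, limma adjusted p = 0.0384).

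Abca8a averaged 19.3 ± 4.68, 17.2 ± 6.75 and 19.3 ± 2.15 RPKM in wild-type livers, DKO livers and tumors, and Abca9 0.949 ± 0.457, 1.16 ± 0.217 and 0.9202 ± 0.266. Their groups overlapped in every comparison. Abca8a and Abca8b are close copies, so reads may be shared between them.

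**Figure D4:**
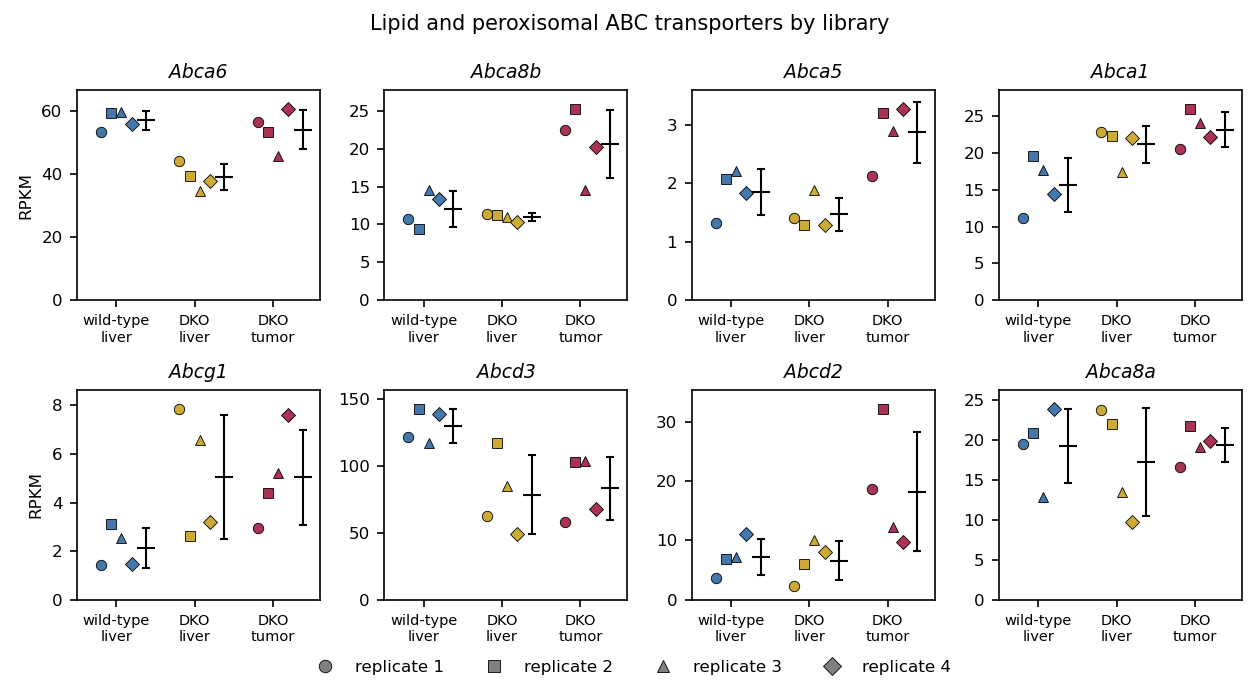
RPKM (y axes, from 0) of 8 lipid and peroxisomal ABC transporters in each library, by group (x axes), with the symbol for the replicate number and the mean with the SD beside each group. Abca6 of all DKO livers lies below both other groups, Abca8b of all tumors lies above both liver groups, and Abcd3 of all DKO libraries lies below the wild-type livers.

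Abca1, which loads cholesterol and phospholipid onto apolipoprotein A-I, was at 11.2, 19.6, 17.6 and 14.4 RPKM in wild-type livers, at 22.9, 22.4, 17.5 and 22.1 in DKO livers and at 20.6, 25.96, 24.1 and 22.2 in tumors. All tumors lay above all wild-type livers, and among the DKO livers only liver 3 lay within the wild-type range. The log2 difference from wild type was 0.43 ± 0.18 (SE, limma adjusted p = 0.372) for DKO livers and 0.56 ± 0.18 (SE, limma adjusted p = 0.112) for tumors.

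Abcg1, an intracellular sterol transporter that macrophages express strongly, was at 1.42, 3.11, 2.53 and 1.47 RPKM in wild-type livers, at 7.85, 2.64, 6.597 and 3.19 in DKO livers and at 2.94, 4.41, 5.21 and 7.61 in tumors. DKO liver 2 and tumor 1 reached into the wild-type range. The log2 difference from wild type was 0.89 ± 0.31 (SE, limma adjusted p = 0.325) for DKO livers and 0.93 ± 0.31 (SE, limma adjusted p = 0.129) for tumors, and the latter passed the test after median-of-ratios scaling (0.96, limma adjusted p = 0.049). The summed macrophage markers had a median of 450 RPKM in DKO livers, 112 in tumors and 244 in wild-type livers. The listed markers did not all move with their sum. Clec4f averaged 29.4 ± 35.3 RPKM in tumors against 59.3 ± 29.5 in wild-type livers, and Cd14 12.7 ± 4.13 against 7.78 ± 3.25. Abcg1 averaged 5.07 ± 2.55 RPKM in DKO livers and 5.04 ± 1.95 in tumors. The part of macrophages in the Abcg1 level was not tested.

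Among the 48 member genes with RefSeq promoter windows, 1 held any of 4 E2F words (TTTCCCGC, TTTGGCGC, TTTCGCGC and TTTGCCGC, both strands), which were found in 2.26% of all windows. That gene was Abca1. The 250 bases before its start in GRCm38.p6, chr4:53159896-53160145 on the minus strand, are shown for this reason, with the match to TTTGCCGC, written as its reverse complement, in capitals.
Abca1: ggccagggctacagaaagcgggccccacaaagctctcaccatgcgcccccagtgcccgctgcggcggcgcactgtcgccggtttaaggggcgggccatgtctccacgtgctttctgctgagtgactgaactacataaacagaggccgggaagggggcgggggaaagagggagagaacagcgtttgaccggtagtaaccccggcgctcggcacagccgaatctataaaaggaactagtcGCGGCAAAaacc
The match is a description of the letters, and E2F binding was not measured in these libraries.

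Among the genes of subfamily D, Abcd3 was lower in every DKO library than in any wild-type liver. Abcd3 imports branched-chain fatty acids and bile acid precursors into peroxisomes. It was at 122, 143, 117 and 139 RPKM in wild-type livers, at 62.4, 117, 85.3 and 49.3 in DKO livers and at 58.3, 103, 104 and 67.8 in tumors. DKO liver 2 nearly reached the lowest wild-type value, at 117.0 against 117.3 RPKM in wild-type liver 3, and would exceed it after median-of-ratios scaling. The log2 difference from wild type was -0.79 ± 0.27 (SE, limma adjusted p = 0.312) for DKO livers and -0.68 ± 0.27 (SE, limma adjusted p = 0.185) for tumors, the latter -0.36 after quantile normalization.

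Abcd2, a peroxisomal importer of very long-chain and polyunsaturated fatty acids, was at 3.66, 6.82, 7.12 and 11.1 RPKM in wild-type livers, at 2.25, 5.99, 9.98 and 7.96 in DKO livers and at 18.7, 32.1, 12.2 and 9.68 in tumors. Tumors 1, 2 and 3 lay above every liver library, and tumor 4 lay within the wild-type range. The log2 difference of tumors was 1.17 ± 0.43 (SE, limma adjusted p = 0.163) from wild type and 1.34 ± 0.43 (SE, limma adjusted p = 0.169) from DKO livers. Without DKO animals 1 and 2 these were 0.62 and 0.26. Abcd4, a lysosomal cobalamin transporter, averaged 4.28 ± 1.36 RPKM in wild-type livers, 5.63 ± 2.41 for DKO livers and 3.38 ± 1.88 for tumors.

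The remaining expressed members had overlapping groups in every comparison. They included Abca3, a lamellar body phospholipid transporter best known from lung, at 39.3 ± 5.66 RPKM in wild-type livers, 36.4 ± 2.21 in tumors and 38.1 ± 5.14 in DKO livers, and the mitochondrial Abcb6, Abcb8 and Abcb10. The soluble Abce1, Abcf1, Abcf2 and Abcf3, which act in ribosome recycling and translation and transport nothing, ranged from 6.37 to 29.3 RPKM over all libraries, with median log2 differences of 0.07, 0.02 and -0.07 in the 3 comparisons. Abcc9, the regulatory subunit of a potassium channel, averaged 3.03 ± 1.18 RPKM in wild-type livers and 5.47 ± 1.72 in tumors, a log2 difference of 0.69 ± 0.28 (SE, limma adjusted p = 0.196). It overlaps 5330439B14Rik on the other strand. Strand use in the counting is not given, so reads of such overlapping genes cannot be told apart.

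Of the 18 members below the expression rule, 14 stayed under 0.5 RPKM in all 12 libraries. Slco6b1 and Slco6c1 had no read in any library. For 1 library taken alone, counting error was set at 3 reads, or 0.076 to 0.154 RPKM for these genes. That setting is not a maximum, and it does not use the 12 libraries together. Just below the rule, Slco1c1 reached 0.5 RPKM in 3 libraries and Abcb9 and Abcc12 in 2, with Abcc12 highest in DKO liver 3 at 1.46. Just above it, Slco1a5 ranged from 0 to 0.747 RPKM.

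The other genes of hepatic transport were listed with earlier results of these data known. Of 14 further solute carriers tested, none passed limma between DKO liver and wild-type liver or between tumor and DKO liver, and 1 rose in tumors against wild type. This was Slc16a1, a monocarboxylate transporter (log2 difference 1.03, SE 0.23, limma adjusted p = 0.0353), at 18.4, 11.9, 16 and 16.3 RPKM in wild-type livers and 32.5, 47.2, 31.8 and 23.4 in tumors. Its call held in 12 of 23 alternatives, with limma adjusted p up to 0.298, and was lost without DKO animals 1 and 2 (log2 difference 0.78, limma adjusted p = 0.189). Leaving out any 1 wild-type liver, tumor 1 or tumor 2 also ended it (limma adjusted p = 0.0584 to 0.113). The organic anion transporter Slc22a7 had 54.7, 25.7, 34.7 and 30.1 RPKM in wild-type livers and 6.99, 8.34, 18.8 and 1.9 in tumors, and did not pass (log2 difference -2.15, SE 0.50, limma adjusted p = 0.0516). It passed in 4 of 23 alternatives, with limma adjusted p from 0.0122 to 0.437. Slc10a1, the sodium-dependent bile acid uptake transporter, did not pass either (log2 difference -0.86, SE 0.27, limma adjusted p = 0.112, -0.50 after quantile normalization).

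None of the 11 canalicular flippase and scaffold genes, 15 nuclear receptors and other factors, 14 bile acid and sterol enzymes or 15 conjugating enzymes tested passed limma in any of the 3 comparisons. The median log2 difference of tumors from wild type was -0.03, -0.33, -0.57 and -0.30 for these lists, beside -0.02 over all genes. Nr1h4, the bile acid receptor, had 29.6, 31.4, 53.6 and 29.9 RPKM in tumors against 72.7, 60.5, 57.6 and 74.5 in wild-type livers, without overlap (log2 difference -0.90, SE 0.24, limma adjusted p = 0.0673). It passed in 4 of 23 alternatives, with limma adjusted p from 0.0208 to 0.37. Nr1i3, a xenobiotic receptor, had a log2 difference of -1.10 (SE 0.35, limma adjusted p = 0.118), and -0.69 without DKO animals 1 and 2. Baat, which joins bile acids to taurine, had a log2 difference of -0.86 (SE 0.24, limma adjusted p = 0.0739), and -0.47 after quantile normalization. It passed in 1 of 23 alternatives, with limma adjusted p from 0.0214 to 0.433.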

How the data were processed

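Gene expression was read from 12 deposited RPKM tables, 1 per library. Per the labels, polyadenylated RNA was read on a SOLiD system. The submitters' processing notes name BWA and the build mm9, and the sources used here name no counting tool. RPKM times exon length gave whole reads within 0.05 of a read for at least 99.991% of the authors' values, from which depth (7.985 to 15.956 M reads) was derived.

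Each symbol was represented by its row with the longest exons (6 members have more than 1). Genes at 0.5 RPKM or more in at least 4 libraries entered limma 3.58.1 in R 4.3.3, a mean per group on log2(RPKM + 1) with trended, robust variances, and an adjusted threshold of 0.05, after a test on simulated data. The members, roles and lists were chosen with earlier results of these data known. Values in every library are given for members that passed the test, for 18 transporters set by role and for the 5 largest differences without overlap per comparison, and for others whose groups separate. The values of 1 member are not reported here, though counts and medians over the members hold it. Tumor and DKO liver of 1 number share an animal code, and their deviations from the group means correlated at 0.117, 0.346, 0.367 and 0.003 across genes.

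Alternatives covered scaling, offset, filter, transcript choice, voom, the 8 libraries of a comparison, replicate blocks, the tag, and leaving out libraries. Python 3.11.15 with pandas 2.3.3 and matplotlib 3.10.9 made the tables and plots. RefSeq promoters of GRCm38.p6 supplied sequences only.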

Additional observations from a re-analysis of the deposited data

Results flagged for a closer look

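In 9 of 126 groups of 4 libraries tested, 1 library stood apart from the other 3 by a gap that exceeded Dixon's critical value for its share of the range. Chance alone flags about 1 in 20 groups. Tumor 4 was high for Abcb4 (88 RPKM against 41.9 to 44.8 in the other tumors) and for Abcc4 (19.2 against 0.614 to 2.07). Tumor 3 was high for Abcc1 (1.27 against 0.606 to 0.666) and for Abcc10 (1 against 0.524 to 0.577). DKO liver 3 was high for Abcb8 (10.9 against 7.19 to 7.4) and for Slco3a1 (1.92 against 0.509 to 0.735), and low for Abca1 (17.5 against 22.1 to 22.9). DKO liver 4 was low for Abcb6 (18.4 against 31.1 to 33). Wild-type liver 1 was low for Abcb10 (9.19 against 12.6 to 13.2).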

How the results depend on the processing

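For DKO liver against wild-type liver, 0 members passed in all 23 alternatives; over all genes the count was 1 with median-of-ratios scaling, 1 with the 8 libraries alone, 1 without DKO animals 1 and 2, and 0 to 2 without 1 library each. For tumor against wild-type liver, the member count of 1 became 3 with median-of-ratios scaling and 0 with no filter, a replicate block, the tag as a covariate, libraries of the shared tag alone, or without DKO animals 1 and 2, and was 0 to 2 without 1 library each. Over all genes the 216 calls became 609 with median-of-ratios scaling, 478 with quantile normalization, 112 with no filter, 128 with a replicate block, 3 with the tag covariate, 25 with the shared tag, 10 without DKO animals 1 and 2, and 16 to 413 without 1 library each. For tumor against DKO liver, the member count of 0 became 1 with quantile normalization and 0 to 3 without 1 library each (3 without tumor 3). Over all genes the 1 call became 24 with quantile normalization, 55 with the 8 libraries alone, 71 with the replicate block, 0 without DKO animals 1 and 2, and 1 to 363 without 1 library each. The cause of these shifts was not tested.

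Abcc6 in tumors against wild type was called in 13 of 23 alternatives, with log2 differences from -1.33 to -0.78 and limma adjusted p from 0.0183 to 0.377. Among the 13 are the fits that leave out a DKO liver. DKO livers are not compared here and enter only through the shared estimate of the spread. The 23 alternatives of Cyp2u1, Cyp2a4 and Slc16a1 include the same kind of fit. The Abcc6 call was lost with no filter (0.0686), the tag covariate (0.355) and the replicate block (0.104). Wild-type and DKO libraries of 1 number share only that number: the correlations of their deviations were 0.227, -0.127, 0.03 and -0.126 for DKO livers and 0.025, -0.101, 0.024 and 0.047 for tumors. For tumor and DKO liver, 2 of 4 tumors correlated best with their own number, and the block changed no member's call. Of 65 single-member differences run, 22 changed sign in some alternative (60 of 1451 fits), in none of which the gene was called. They include tumors against wild type for Slco1b2 (-0.74, 0.02 without DKO animals 1 and 2) and Slco1a4 (-0.42, 0.51). None of the 26 with separate groups or an unadjusted p under 0.05 changed sign. These 26 were picked from the same data by that separation or p, so an unchanged sign was largely set by the choice. For tumor against DKO liver, median-of-ratios scaling and quantile normalization both moved the median of all genes from -0.09 to 0.01 and of the members from -0.06 to 0.07, which was 0.16 without DKO animals 1 and 2. For DKO liver against wild type they moved the median of all genes from 0.08 to 0.00 and -0.01, and of the members from -0.04 to -0.13 and -0.09. The counts of groups that do not overlap were not repeated under other scalings. Precision is limited by 4 libraries a group and, for members near 0.5 RPKM, by few reads.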
